A study of Mus musculus with 15 samples.

Results

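The genes described here carry acetylcholine signalling: 4 nicotinic receptor subunits (Chrna4, Chrna5, Chrna7 and Chrnb2), 3 muscarinic receptors (Chrm1, Chrm2 and Chrm3) and 3 proteins that make, recover or break down the transmitter (Chat, Slc5a7 and Ache). They were taken as a list of 10 genes, and every array feature that the platform annotation gives to one of them was kept apart from the others. The annotation lists 15 features for them, of which 12, covering all 10 genes, had values, out of 34479 features with values in all. The other 3, feature 6974 of Chat, feature 7027 of Chrm3 and feature 40739 of Chrna7, were empty in the deposited table, and each of those genes is read here from 1 other feature.

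RNA came from the whole hippocampus of adult female mice in 3 groups of 5 one-colour (Cy3) arrays: SAMP8 that had exercised, sedentary SAMP8 and sedentary SAMR1. SAMP8 is an inbred senescence-accelerated line, used as a model of early memory decline, and SAMR1 is the senescence-resistant line kept as its control. The lines differ at many places in the genome, so a difference between them cannot be assigned to any 1 allele from these groups. The labels number the arrays as biological replicates, without ages, the kind or length of exercise, or whether an array stands for 1 animal, and a p-value here reflects how far the numbered samples spread, which may be technical.

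Acetylcholine reaches the hippocampus mainly through axons of cholinergic neurons whose cell bodies lie in the medial septum and diagonal band. Choline acetyltransferase (Chat) makes it, the choline transporter (Slc5a7) takes choline back up into the terminal, and acetylcholinesterase (Ache) hydrolyses it in the synapse. Nicotinic receptors are ion channels built of subunits, while muscarinic receptors act through G proteins. The transcripts of Chat and Slc5a7 sit largely in the cell bodies outside the tissue sampled, whereas receptor transcripts can also be made by hippocampal cells themselves.

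Array medians lay between 207.75 and 208.67 intensity units, so the arrays were on 1 scale. A floor was set at an intensity of 39.17, below which 5% of the values lay, and log2 was taken after lifting lower values to it. Of 12 marker genes of hippocampal neurons, 11 had a mean log2 intensity above that of the median feature, 7.68. Markers of basal forebrain cholinergic neurons had 7 of 8 genes with values and none of the 7 above the median feature. Their mean log2 intensity ranged between 6.32 and 6.50 in exercised SAMP8, between 6.22 and 6.69 in sedentary SAMP8, and between 6.30 and 6.71 in SAMR1. Striatal markers stood apart on 1 array, SAMR1 replicate 5, with a mean of 9.0 against 7.43 to 7.57 on the other SAMR1 arrays. Leaving out that array changed no call among the 12 features. Array means of choroid plexus markers spread widely within each group. They ran from 7.17 to 10.18 in exercised SAMP8, 7.75 to 10.13 in sedentary SAMP8 and 8.78 to 10.32 in SAMR1. Thalamic means ran from 8.54 to 9.26 in exercised SAMP8, 8.87 to 9.60 in sedentary SAMP8 and 8.97 to 9.11 in SAMR1.

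Most of the cholinergic features were dim. The features of Ache and Chrnb2 were above the median feature, and the other 10 were below it. At least 1 array lay at the floor for 3 features, those being feature 32944 of Chrna4, feature 25295 of Chrm2 and feature 16594 of Slc5a7, with 7 of 180 values in all. Differences on those features depend on the floor, which can shrink a difference or change its sign. Features differ in how brightly a given amount of RNA makes them glow, so no level is compared between genes.

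**Figure D1:**
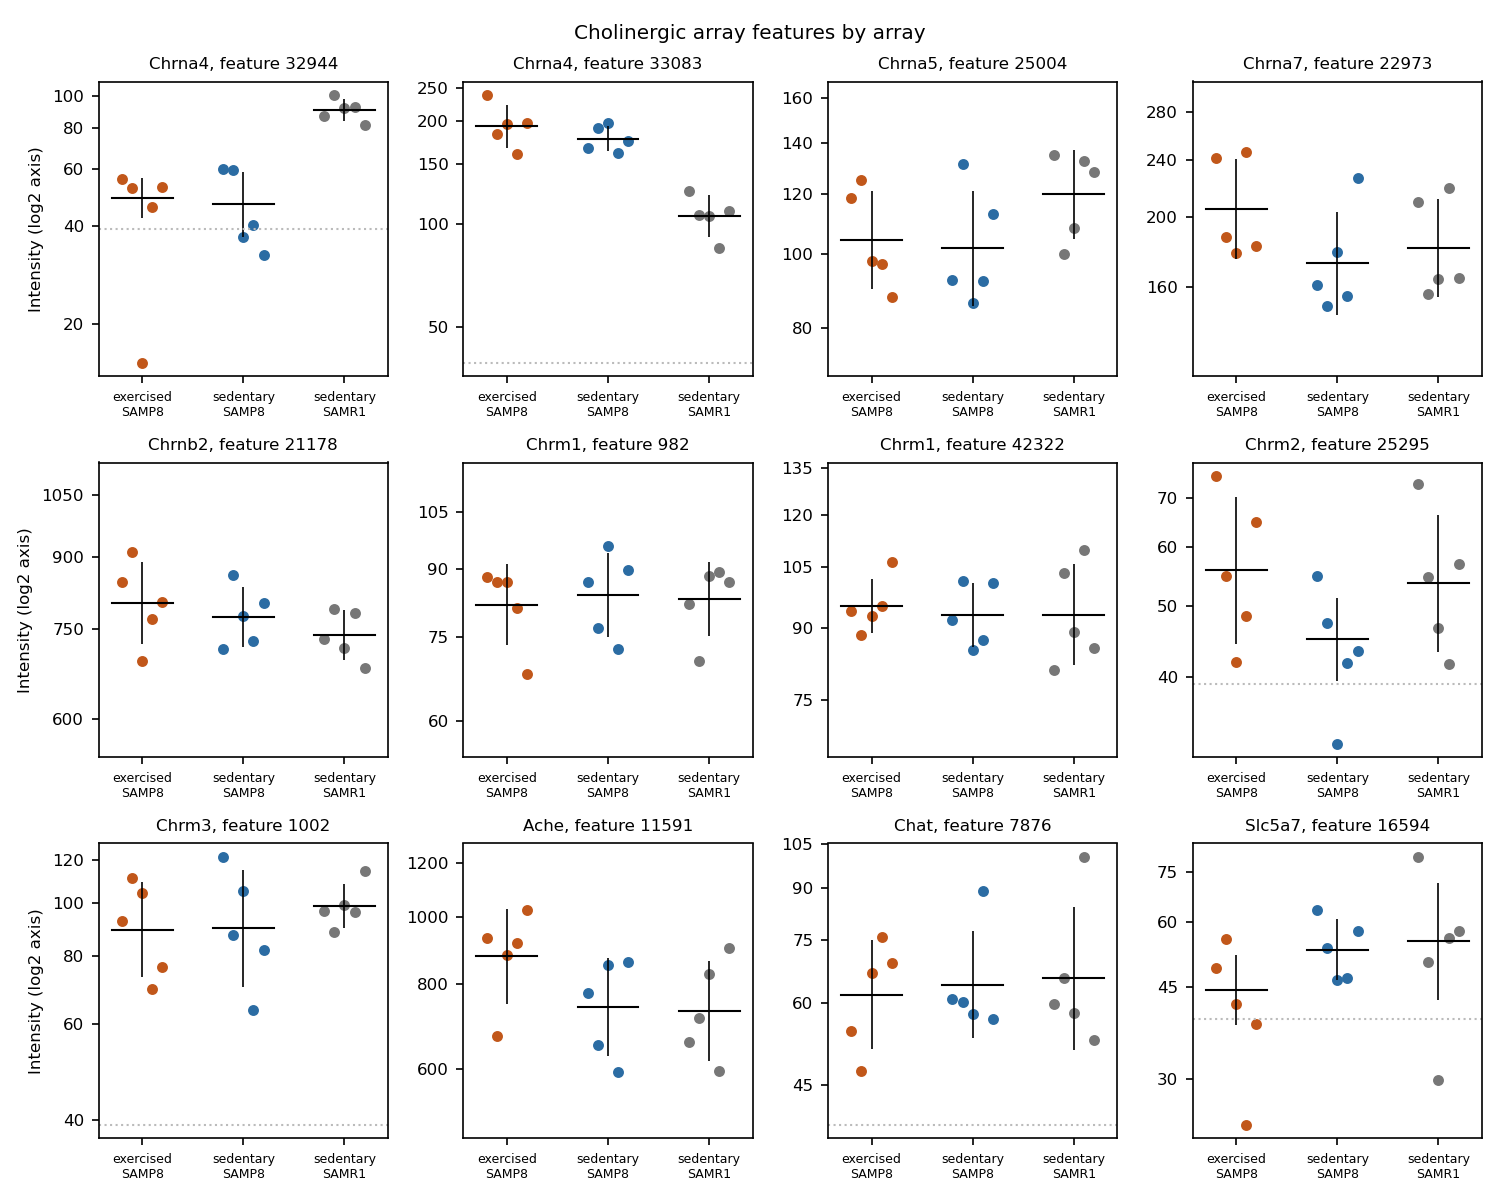
Intensity as deposited (log2-spaced axis, a different range in each panel) of the 12 features on each of the 15 arrays, with points in replicate order from left to right within a group. Horizontal lines are group means and vertical lines 1 SD, both computed on the log2 scale after the floor (dotted where within range). The 2 Chrna4 features separate SAMR1 from both SAMP8 groups in opposite directions, and in the other 10 panels the groups overlap.

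The first comparison asked how the cholinergic genes of sedentary SAMP8 differed from those of sedentary SAMR1. The only gene that passed the test was Chrna4, which encodes the subunit that joins with the product of Chrnb2 in the main high-affinity nicotine receptors of the brain. Its features moved in opposite directions: feature 32944 was lower in SAMP8 and feature 33083 was higher. The platform annotation gives both the same RefSeq transcript, and the place of each in that transcript was not analysed here.

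Feature 32944 of Chrna4 had intensities of 60.0, 59.6, 37.0, 40.2 and 32.6 in sedentary SAMP8 against 86.9, 101.0, 92.4, 92.4 and 81.7 in SAMR1. Every SAMP8 array was below every SAMR1 array, and 2 of the SAMP8 arrays were at the floor. The mean log2 intensity was 5.54 ± 0.33 in sedentary SAMP8 and 6.50 ± 0.11 in SAMR1 (SD, n = 5 each). The difference was -0.96 with a standard error of 0.14 and a 95% interval of -1.26 to -0.66, 1.94-fold lower in sedentary SAMP8, with a limma adjusted p of 0.000595.

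Feature 33083 of Chrna4 ran the other way. Its intensities were 167.0, 191.2, 197.7, 161.6 and 174.5 in sedentary SAMP8 against 125.1, 106.3, 105.7, 84.9 and 109.1 in SAMR1. The lowest SAMP8 array was above the highest SAMR1 array, and none was near the floor. The mean log2 intensity was 7.47 ± 0.12 in sedentary SAMP8 and 6.72 ± 0.20 in SAMR1, a difference of 0.75 with a standard error of 0.12 and a 95% interval of 0.51 to 1.00. SAMP8 was thus 1.69-fold higher on this feature, with a limma adjusted p of 0.000969.

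Of the 12 features, 1 was called higher and 1 lower in sedentary SAMP8, where 2.26% of all 34479 features were called. The groups did not overlap on the same 2 features, against 3.96% of all features. A count of 2 of 12 on a single gene says nothing about the list as a whole. The median difference of the 12 was -0.04, beside -0.003 for all features.

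The opposition was also read within arrays, where the log2 value of feature 33083 was subtracted from that of feature 32944. That difference was -1.93 ± 0.35 in sedentary SAMP8, between -2.34 and -1.48, and -0.22 ± 0.26 in SAMR1, between -0.53 and 0.12 (SD, n = 5 each). The groups differed by -1.71. Since each feature already separated the lines, and in opposite directions, this difference had to separate them too, and it is no further evidence. Chrm1, the other gene with 2 features, showed a difference between lines of 0.02 in the same measure (two-sided exact permutation p = 0.929, adjusted p = 0.929 over the 4 such tests made).

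**Figure D2:**
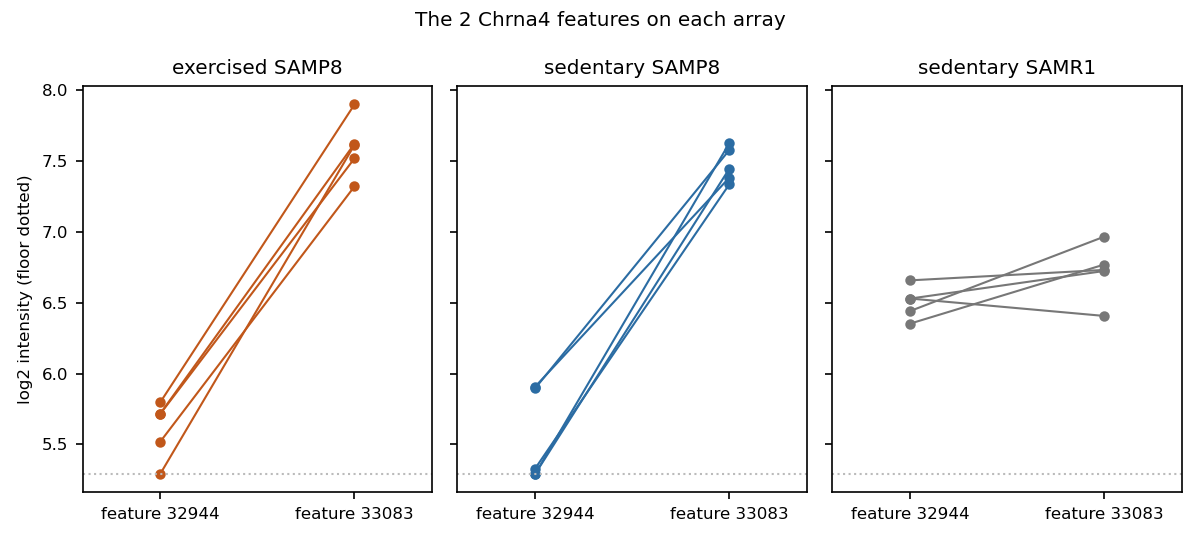
The log2 intensity, after the floor, of Chrna4 features 32944 and 33083, joined for each of the 5 arrays of a group. The lines climb steeply on every SAMP8 array, exercised or sedentary, with a mean within-array difference of -1.99 in exercised SAMP8 and -1.93 in sedentary SAMP8, and lie nearly flat in SAMR1, with -0.22; the slope itself mixes the brightness of the features, so only its change between groups is read.

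What is said of Chrna4 depends on how its features are combined. With the 2 features averaged on the log2 scale, the gene had 6.51 ± 0.18 in sedentary SAMP8 and 6.61 ± 0.10 in SAMR1, a difference of -0.10 with a limma adjusted p of 0.820 over 16401 genes. With the brighter feature alone, it was higher in SAMP8. Without the floor, the difference on feature 32944 was -1.03 and its adjusted p 0.115. In that fit, 1 exercised array at an intensity of 15.2 widens the shared spread: the adjusted p was 0.00973 with the 2 sedentary groups alone and 0.00182 without that exercised array.

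Opposite calls on 1 gene were counted over all named genes. Of 6970 named genes with several features, 309 had at least 1 called feature in the comparison of lines and 76 had at least 2. Called features ran in both directions in 14 of the 76, and in 4 of these the opposed features carried the same transcript accession. Those 4, named after their values were seen, were Chrna4, Gpatch11, Krr1 and Rpp40. Among the 10 tested genes nearest to Chrna4 in the RefSeq table of assembly GRCm38.p6, 1 had a called feature, Ppdpf, at -0.81 (limma adjusted p = 0.000136), where 3.26% of all named genes had a called feature. The same count, 1 of 10, was found around Chrm2 (1810058I24Rik at -1.76), Chrm3 (Mtr at 0.88) and Slc5a7 (St6gal2 at 0.69), which were not called themselves, so it is not particular to Chrna4.

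Markers of meninges and fibroblasts moved with the comparison of lines. Of their 34 features, 14 were called higher in sedentary SAMP8 and none lower, and their mean log2 intensity was 9.87 to 10.92 in sedentary SAMP8 against 8.68 to 10.04 in SAMR1. Choroid plexus markers gave a negative difference on 19 of 20 features, with none called. Of the neuronal lists, 1 of 19 hippocampal and 1 of 25 thalamic features were called higher. None of 29 basal forebrain cholinergic, 7 striatal, 5 habenular or 22 GABA interneuron features was called. Of the 19 hippocampal features, 8 had an unadjusted p under 0.05, beside 10.7% of all features. These went both ways, with Spink8, Dsp and C1ql2 higher and Neurod6 and Man1a lower in sedentary SAMP8. Thalamic features gave a positive difference in 22 of 25 and GABA interneuron features a negative one in 18 of 22. Those features came from 8 and 9 genes. Many belong to 1 gene, such as Ntng1 among the thalamic and Sst among the GABA interneuron features, and are not independent. In whole tissue, fewer cells of a type and less RNA per cell cannot be told apart. The part of these cells in the Chrna4 values was not tested. In exercised SAMP8 the meningeal mean was 9.42 to 10.44. Against SAMR1, 21 of the 34 features gave a positive difference there, with a median of 0.36, and 13 had an unadjusted p under 0.05 with none called (lowest limma adjusted p = 0.0796).

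The subunits that can join Chrna4 in a receptor did not pass the test. Chrnb2, its usual partner, had intensities of 714.6, 859.8, 776.1, 728.6 and 800.8 in sedentary SAMP8 against 733.0, 790.1, 715.7, 781.8 and 680.7 in SAMR1. The groups overlapped nearly throughout, and the difference was 0.07 with an interval of -0.12 to 0.25, the narrowest of the 12. Chrna5, an accessory subunit that changes how such receptors open, lay between 86.3 and 131.2 in sedentary SAMP8, with a median of 92.5, and between 99.8 and 134.7 in SAMR1, with a median of 128.2. Its difference was -0.24, with an interval of -0.52 to 0.05 and a limma adjusted p of 0.603, the lowest among the 10 features not called.

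Chrna7, whose product forms calcium-permeable channels made of that subunit alone, had intensities of 161.3, 150.7, 179.3, 155.5 and 226.5 in sedentary SAMP8 against 209.8, 156.6, 164.5, 219.7 and 164.9 in SAMR1. Each group had its own spread of about the same size, and the difference was -0.07 with an interval of -0.37 to 0.23.

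Of the muscarinic receptors, Chrm1 and Chrm3 act through Gq, and Chrm2 through Gi as a brake on acetylcholine release. For Chrm1 the differences between lines were 0.02 on feature 982, with 72.7 to 95.8 in sedentary SAMP8 and 70.4 to 89.4 in SAMR1, and -0.0002 on feature 42322, with 85.0 to 101.4 in sedentary SAMP8 and 81.0 to 109.6 in SAMR1. Both features thus gave almost the same mean in the lines. Chrm3 had 63.7 to 121.7 in sedentary SAMP8 and 88.5 to 114.6 in SAMR1, a difference of -0.14 with an interval of -0.48 to 0.21.

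Chrm2 had intensities of 54.9, 47.4, 32.4, 41.8 and 43.4 in sedentary SAMP8 against 73.3, 54.7, 46.7, 41.6 and 56.9 in SAMR1. The values lay close to the floor and the groups overlapped, with a difference of -0.25 and an interval of -0.60 to 0.10.

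The genes for making and clearing the transmitter gave differences near 0 between the lines. Ache had intensities of 775.0, 652.2, 851.2, 594.8 and 861.4 in sedentary SAMP8 against 657.8, 713.6, 827.2, 596.2 and 901.6 in SAMR1, a difference of 0.02 with an interval of -0.29 to 0.32. Chat had 60.9, 60.3, 57.8, 89.1 and 56.8 in sedentary SAMP8 against 59.7, 65.6, 58.1, 100.2 and 52.8 in SAMR1, a difference of -0.03 with an interval of -0.41 to 0.34. In each line a single Chat array, replicate 4, stood well above the other 4. Slc5a7 had 63.3, 53.5, 46.4, 46.9 and 57.7 in sedentary SAMP8 against 80.1, 50.4, 30.0, 56.1 and 57.8 in SAMR1, a difference of -0.05 with an interval of -0.39 to 0.29.

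For the 10 features not called between lines, the intervals together spanned -0.60 to 0.34. The largest change that lay within any of them was 1.52-fold, and the room left differed by feature.

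**Figure D3:**
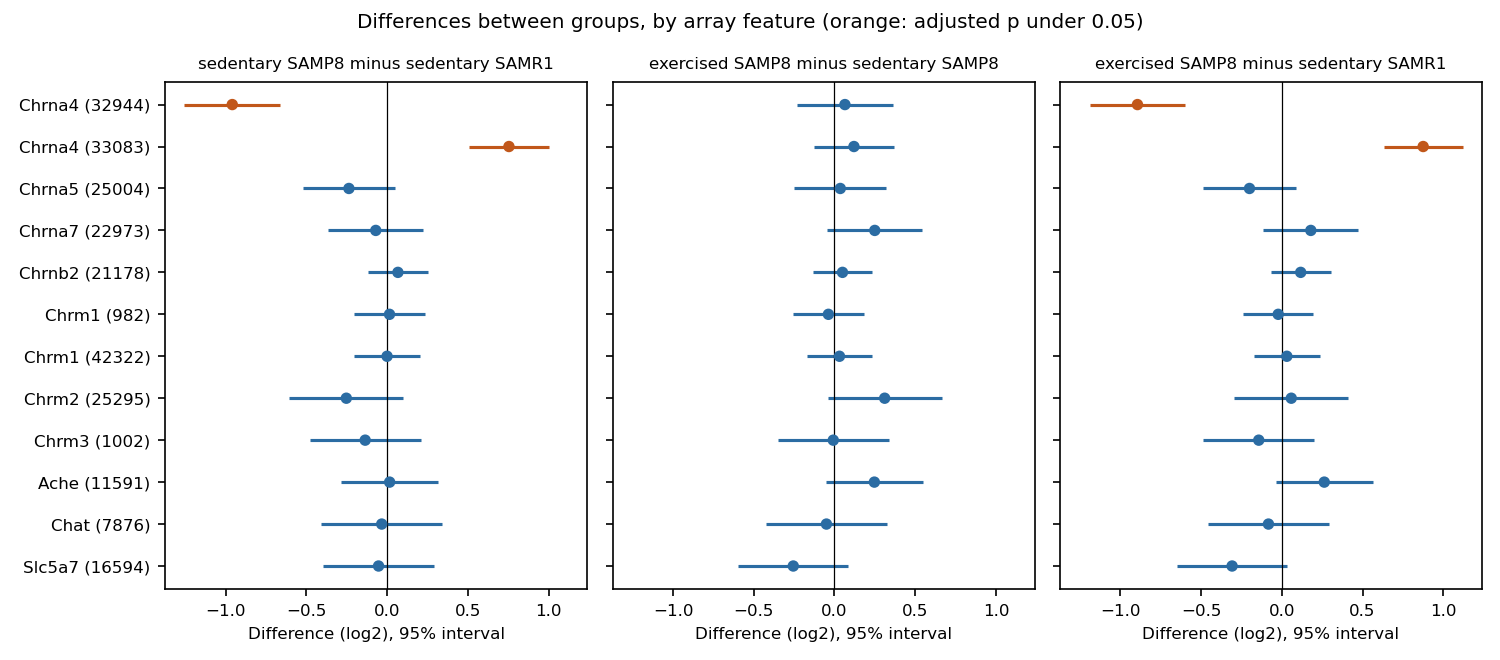
Difference in mean log2 intensity (points) with its 95% interval (bars) for each of the 12 features, in 3 panels. These are sedentary SAMP8 minus SAMR1 on the left, exercised minus sedentary SAMP8 in the middle, and exercised SAMP8 minus SAMR1 on the right. Orange marks an adjusted p under 0.05: the Chrna4 features in both comparisons with SAMR1, at -0.96 and 0.75 and at -0.89 and 0.88, and none for exercise.

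The second comparison asked how exercised SAMP8 differed from sedentary SAMP8. None of the 12 features was called, and none had an unadjusted p under 0.05. Over all 34479 features limma called 0 (0%), with 1193 at an unadjusted p under 0.05. The groups overlapped on all 12 features, where 0.418% of all features did not overlap. The median difference of the 12 was 0.04, beside 0.007 for all features. Marker lists shifted here as well, with no feature called: 32 of 34 meningeal and fibroblast features gave a negative difference, 10 of them at an unadjusted p under 0.05, as did 23 of 25 thalamic features, 5 of them at that level, and 18 of 20 choroid plexus features. Several features of a list belong to the same gene and are not independent. The part of these cells in the values below was not tested.

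Neither Chrna4 feature passed the test between exercised and sedentary SAMP8. Feature 32944 had intensities of 55.6, 52.5, 15.2, 45.9 and 52.6 in exercised SAMP8, and its difference from sedentary SAMP8 was 0.06 with an interval of -0.23 to 0.36. The sign of that difference depended on the processing: alternatives beyond leaving out a single array gave -0.14 to 0.21, with none called. Feature 33083 had 238.8, 183.4, 195.9, 159.9 and 197.0, with a difference of 0.12 and an interval of -0.13 to 0.37. Exercised and sedentary arrays overlapped on both. The within-array difference of the features was -1.99 ± 0.22 in exercised SAMP8 and -1.93 ± 0.35 in sedentary SAMP8, which differed by -0.06 (exact permutation p = 0.778, adjusted p = 0.929). Without the floor these groups differed by -0.26 in that measure (exact permutation adjusted p = 0.868).

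Chrm2, Chrna7, Ache and Slc5a7 had the largest exercise differences by size, and none passed the test. Chrm2 had 75.0, 54.8, 41.9, 48.4 and 64.9 in exercised SAMP8, against 32.4 to 54.9 in sedentary SAMP8. Its difference was 0.31, with an interval of -0.04 to 0.66. The upper bound corresponds to 1.58-fold, the largest change within any of the 10 intervals.

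Chrna7 had 241.2, 188.0, 178.4, 246.5 and 182.8 in exercised SAMP8, against 150.7 to 226.5 in sedentary SAMP8. The difference was 0.25 with an interval of -0.05 to 0.54. Ache had 932.4, 670.8, 881.2, 917.4 and 1025.8 in exercised SAMP8, against 594.8 to 861.4 in sedentary SAMP8. All exercised Ache arrays except replicate 2 were above the highest sedentary array, and the difference was 0.25 with an interval of -0.05 to 0.55.

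Slc5a7 had 49.0, 55.8, 41.9, 24.5 and 38.3 in exercised SAMP8, against 46.4 to 63.3 in sedentary SAMP8. With 2 exercised arrays at the floor the difference was -0.26, with an interval of -0.60 to 0.09. After adjustment over all features the p of each of these 4 was 1.

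The remaining exercise differences were small beside the spread. Chrnb2 had 844.7, 911.5, 693.6, 770.1 and 803.4 in exercised SAMP8, a difference from sedentary SAMP8 of 0.05. Chat had 54.5, 47.4, 66.8, 75.6 and 69.2 in exercised SAMP8, a difference of -0.05. Chrna5, Chrm3 and the Chrm1 features 982 and 42322 gave 0.04, -0.01, -0.04 and 0.03.

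The comparison of exercised SAMP8 with SAMR1 shares its arrays with both comparisons above and adds no independent evidence. Both Chrna4 features were called again, 2 of 12 where 3.25% of all features were called, and the groups did not overlap on them, where 4.63% of all features did not overlap. Feature 32944 differed by -0.89 with an interval of -1.19 to -0.60 (limma adjusted p = 0.00106). Feature 33083 differed by 0.88 with an interval of 0.63 to 1.12 (limma adjusted p = 0.0002). The lowest adjusted p among the other 10 features was 0.393, that of Slc5a7 at -0.31.

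The groups share replicate numbers, and same-numbered arrays were set side by side. The same number gave the highest array in all 3 groups for 4 of the 12 features, or 33.3%, beside 10.7% of all features. These were Chrnb2 with replicate 2, Chrm2 with replicate 1, Ache with replicate 5 and Chat with replicate 4. In the 2 sedentary groups alone the same number was highest for 5 of the 12 features, or 41.7%, beside 34.7% of all features. With 12 features, several of them dim, this is given as a description, and what the numbers stand for is not stated in the labels.

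**Figure D4:**
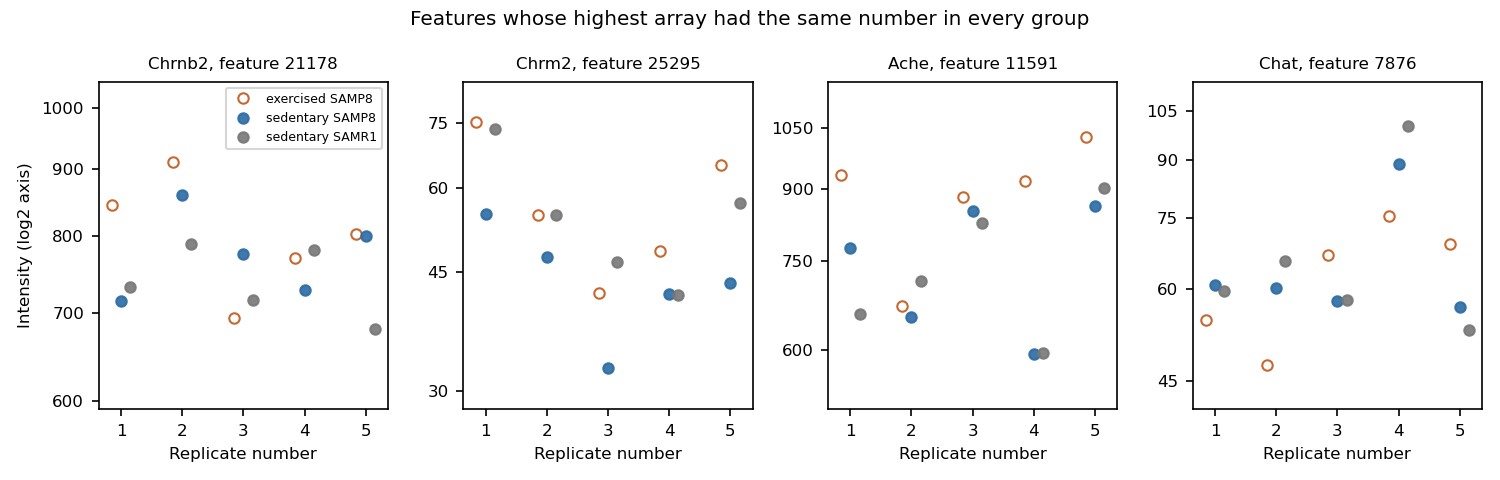
Intensity (log2-spaced axis) against replicate number for the 4 features whose highest array carried the same number in exercised SAMP8, sedentary SAMP8 and SAMR1. Points are single arrays, shifted slightly sideways by group; Chat replicate 4 reached 75.6, 89.1 and 100.2 in the groups in that order.

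Across all 15 arrays, after each group's mean was subtracted, the genes most like Chrnb2 were Dnajb9 (Pearson r = 0.93), Gpx4 (r = 0.91) and Tubgcp4 (r = 0.91). Those most like Ache were Sbf1 (r = 0.92), Eefsec (r = 0.92) and Meis3 (r = 0.91). These are the highest of 10105 genes compared over the same 15 arrays, which share their RNA preparations and scaling, and they are a description only.

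The rest of the acetylcholine system was read from 58 further genes, of which 49 had values on 116 features. None of the 116 was called by limma in any comparison. At an unadjusted p under 0.05 there were 2 features between the sedentary lines and 3 for exercise, or 1.72% and 2.59%, beside 10.7% and 3.46% of all features. The genes listed without values, among them Chrna3 and Chrnb4, were not analysed here.

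Among the other nicotinic subunits, with 13 features of 9 genes, Chrna6 had the lowest p. It was 0.30 between the sedentary lines and -0.36 for exercise, with limma adjusted p of 0.335 and 1. Its mean log2 intensity was 5.56, close to the floor. Chrm4, a Gi-coupled muscarinic receptor, gave 0.39 on feature 36621 and 0.09 on feature 26380 between the lines, and Chrm5 gave 0.03.

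The 22 features for supply, storage and hydrolysis of choline and acetylcholine had a median difference of -0.02 between lines and -0.04 for exercise. Chka, a kinase that turns choline towards phospholipid, gave 0.26 on feature 26448 and 0.24 on feature 29633 between lines (adjusted p = 0.398 and 0.551). Slc18a3, the vesicular acetylcholine transporter, gave -0.20 on its feature at a mean log2 intensity of 5.72 (adjusted p = 0.764).

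Receptor chaperones and modulators, with 16 features of 10 genes, had medians of -0.01 between lines and -0.02 for exercise. Lypd6, a membrane-anchored modulator of nicotinic receptors, had the lowest p between lines at -0.16 (adjusted p = 0.707). Among 36 features of muscarinic signalling the medians were 0.003 and 0.02. Plcb4, a phospholipase C, gave -0.55 on feature 27344 for exercise (adjusted p = 1).

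Growth factor genes that support cholinergic neurons had 26 features, all of Bdnf, Ngfr and Sort1. Their median was -0.11 between lines and 0.14 for exercise. Between lines, 10 of the 26 differences were positive and 16 negative, and the positive ones were all on features of Ngfr. Bdnf, which supports synapse growth and plasticity, gave 0.41 on feature 34974 for exercise (adjusted p = 1). None of the 26 features had an unadjusted p under 0.05 for exercise or between lines. Several Bdnf features report the same transcripts and are not independent, and the features of Ngfr are not independent either.

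**Figure D5:**
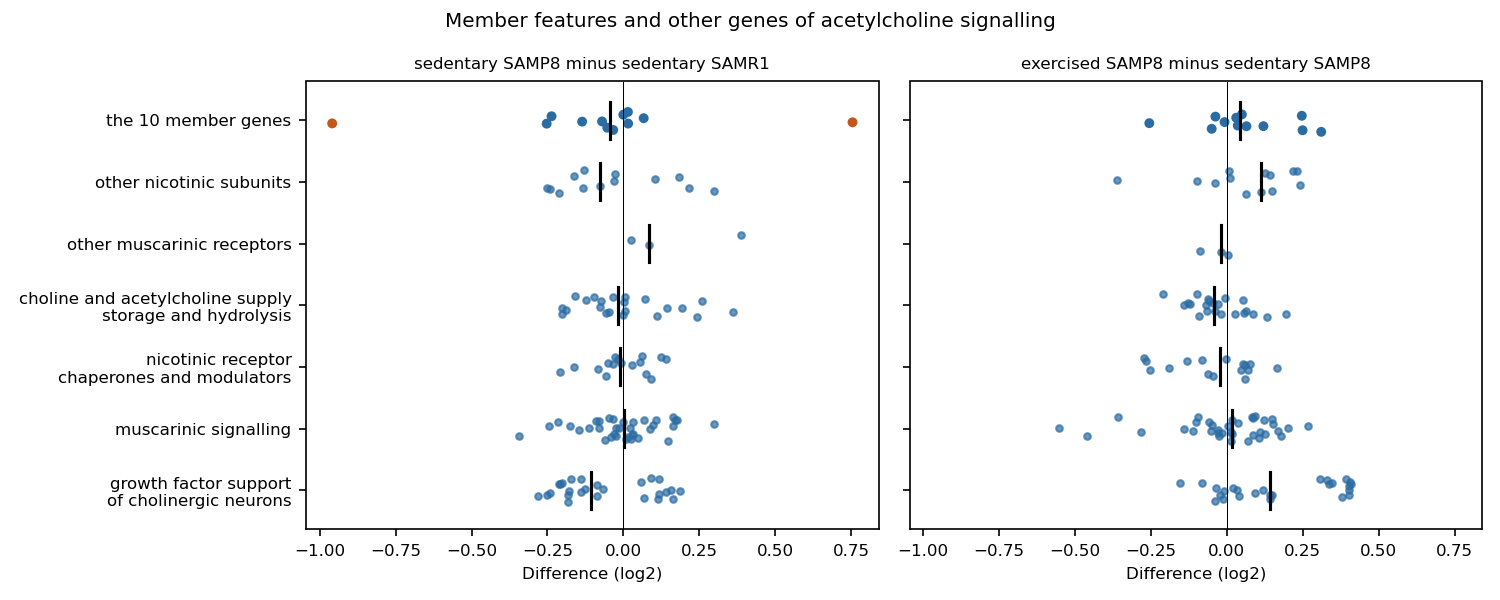
Difference in mean log2 intensity of every feature of the 10 genes and of 6 lists of related genes, between the sedentary lines (left) and for exercise in SAMP8 (right). Points are features, scattered slightly up and down within a list, and black bars are medians; orange marks the called Chrna4 features at -0.96 and 0.75, which lie outside the range of all related genes.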

How the data were processed

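Whole-hippocampus RNA of 15 one-colour arrays, 5 per group, was analysed. The deposited values are intensity on a linear scale, already made comparable between arrays by the authors as the nearly equal array medians show; limma is named per the submitters' processing notes, with no version or step. The background step and the filter behind the 10741 empty rows of 45220 were not stated in the labels or headers. Features were named through the platform annotation, with 27968 features carrying 1 symbol.

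Intensities under the 5th percentile, 39.17, were raised to it, log2 was taken, and limma 3.58.1, run in R 4.3.3 with lmFit and a two-sided eBayes test, was fitted to all 34479 features and 15 arrays with a term for each group. A feature was called at a Benjamini-Hochberg adjusted p under 0.05 over all features. The fit was tested on simulated data. Features of 1 gene were compared within arrays by an exact permutation test, which ignores pairing. The members and lists were chosen with earlier results of these data known. All members are named; of the related genes, those called or with the lowest p, up to 4 a list; likeness is given for members above the median feature. Slc18a3, named for its role, and Plcb4 fall outside that rule and were chosen after their values were seen.

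Sedentary arrays of the lines that carry the same number shared their deviations from the group means in 5 of 5 pairs (r between 0.16 and 0.44). They were therefore treated as paired in an alternative fit with a replicate block. Sedentary SAMP8 replicate 2 was still most like SAMR1 replicate 4, while the others were most like their own number. The exercise comparison met the rule of shared deviations in 1 of 5 pairs and the comparison of exercised SAMP8 with SAMR1 in 3 of 5. Other alternatives changed the floor, the brightness filter, the feature rule, the groups in the fit and each array left out. Further ones centred the arrays on their median, applied cyclic loess, fitted a variance trend with a robust prior, or weighted the arrays. A pair of alternatives without the floor was added after seeing the data.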

Additional observations from a re-analysis of the deposited data

Results flagged for a closer look

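Of 36 groups of 5 arrays tested for a single array far from the others, chance flags about 1 in 20, and 1 was picked out. In sedentary SAMP8, Chat feature 7876 had 89.1 in replicate 4 against 56.8 to 60.9 on the other 4 arrays. On the log2 scale the gap was 0.845 of the group's whole range. Replicate 4 was also the highest Chat array in exercised SAMP8, at 75.6, and in SAMR1, at 100.2. Sedentary SAMP8 replicate 4 had its group's highest mean of basal forebrain cholinergic (6.69), habenular (8.66), thalamic (9.60), striatal and GABA interneuron markers. In SAMR1, replicate 4 was highest for habenular markers, at 8.34. In exercised SAMP8 it was lowest for thalamic ones, at 8.54. The part of such tissue in the Chat values was not tested.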

How the results depend on the processing

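The alternatives used 29 settings. The other 10 features were past the threshold under none of them (lowest adjusted p 0.169); 54 of their 846 values changed sign, all uncalled. The Chrna4 calls held in 15 of 15 fits that left out 1 array, with feature 32944 between -1.05 and -0.90 and feature 33083 between 0.68 and 0.82 between lines, and with the replicate block, under which 1010 features were called over the 10 sedentary arrays. The block changed no call among the 12 features. In the comparison of exercised SAMP8 with SAMR1 it called 545 features against 1120 without it. With 1 array left out the exercise count was 0 to 1, the 1 being Camk1d, without exercised SAMP8 replicate 3, and it was also 1 without both the floor and that array.

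Without the floor, 1 of the 12 features was called between lines, with feature 32944 at -1.03 (adjusted p = 0.115); without it and with only the groups compared, exercised SAMP8 against SAMR1 gave 683 features, 1 of the 12, and -1.17 (adjusted p = 0.0961) on feature 32944. Without the dimmest 40% of features, 1 of the 12 was called in each comparison with SAMR1, with 4 of the 12 left to test. With 1 feature per gene, and so 10 members tested, the counts were 431 and 590, with 1 of the 10 in each; with the mean of a gene's features they were 414 and 602, with 0 of the 10, and Chrna4 was at -0.10 (adjusted p = 0.820) and -0.0095 (adjusted p = 0.983), turning the direction of feature 33083. With a floor at the 20th percentile feature 32944 differed by -0.51 and was still called. With 1 array left out, the within-array test gave -0.13 to 0.038 for Chrm1 and exercise, -0.083 to 0.078 for Chrm1 between lines, and -0.16 to 0.058 for Chrna4 and exercise. Dim features near the floor and 5 arrays a group limit what could be seen.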
